A study of Mus musculus with 8 samples.

Results

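The mRNAs of the autophagy machinery were followed between the non-polysomal and the polysomal parts of the sucrose gradient in mouse oocytes. The genes were taken by name from a table of 25574 genes, as every row whose symbol begins with Atg and a digit, together with Ulk1, Ulk2, Becn1, Map1lc3a, Map1lc3b, Gabarap, Gabarapl1, Gabarapl2, Sqstm1, Wipi1, Wipi2, Rb1cc1, Pik3c3, Pik3r4, Uvrag, Ambra1 and Nbr1, which gave 34 genes. The oocytes came from CD1 mice of 8 weeks that had received 5 IU of PMSG, a gonadotropin, 46 h earlier. They were kept in the meiotic inhibitor IBMX at 100 µM and then cultured without it for 3 h to the stage of nuclear envelope breakdown (NEBD), when the oocyte resumes meiosis and no longer transcribes its genome. Cycloheximide at 0.1 mg/mL, given for 10 min, held the ribosomes on the mRNAs. Lysates of 200 oocytes each were run on gradients of 10 to 50% sucrose that were cut into 10 fractions. RNA of fractions 2 to 5 gave the 4 NP (non-polysomal) libraries, which hold free and single ribosomes and stored mRNA in protein particles, and RNA of fractions 6 to 10 gave the 4 P (polysomal) libraries. The comparison of NP with P asks which mRNAs lay in the polysomal fractions and which in the lighter ones. NP is not stored mRNA alone, as it includes single ribosomes. Fraction 1 was left out, and the study could not exclude that it held some stored particles. Nor could the study exclude heavy stored particles among the polysomes. By the study's account both datasets came from the same gradients, as it describes 4 profiles whose fractions were pooled into NP and P. No label ties an NP library to a P library, so the main test treated the libraries as independent. The oocytes were all of this 1 stage, with the same treatments, so the data hold no comparison between stages. As each library pooled oocytes, a lower level in every oocyte cannot be told apart from the mRNA being present in fewer oocytes.

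Autophagy encloses cytoplasm in a double membrane, the autophagosome, and delivers it to the lysosome for degradation. The ULK kinase complex starts the process, a lipid kinase complex around Pik3c3 marks the membrane, Atg9 and Atg2 proteins supply lipid, and a pair of ubiquitin-like conjugation reactions attaches proteins of the Atg8 family to the membrane. Receptors such as Sqstm1 tie cargo to those proteins and are degraded with it. In mammals, autophagy in the early embryo is known to be induced after fertilisation and to break down maternal proteins.

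The oocyte identity of the libraries was checked first. All 9 oocyte marker genes were detected, with summed levels of 5900.2 to 12408 FPKM in NP and 8153 to 31614 FPKM in P. FPKM stands for fragments per kilobase of gene, relative to the library's mapped fragments, and it is scaled within each library, so a P to NP ratio compares relative abundances and not amounts of RNA. Of 11 cumulus and granulosa cell genes, 4 were at 0 in every library (Foxl2, Ptx3, Has2 and Npr2) and 4 exceeded 1 FPKM in some library. Their summed level was 6.25 to 125 FPKM in NP and 15.4 to 62.6 FPKM in P, mostly from Cyp19a1 and Cyp11a1 except in P replicate 3, where it came from Kitl and Tnfaip6. The haemoglobin genes Hba-a1 and Hba-a2 were at 0 throughout. Recovered from the steps between FPKM values, the scaling number of a library was 1299377 to 7594637 in NP and 2677946 to 4699328 in P. For a gene of 1 kb, a single step was therefore worth 0.132 to 0.77 FPKM. The cDNA was amplified without molecular identifiers, so steps are not independent molecules.

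None of the autophagy mRNAs passed the test between NP and P. The test was limma on log2(FPKM + 1) with Benjamini-Hochberg adjustment, a threshold of 0.1 and 14292 genes, those whose mean FPKM in NP or in P exceeded 0.1. It covered 33 of the 34 genes, as Atg4d lay below that floor, and the lowest adjusted p was 0.47. Over all genes tested in limma, 3 were called, which is 0.021%. With voom on the recovered steps, run as an alternative, 0 of 32 autophagy mRNAs were called, beside 189 of all 12897 genes in that fit (1.47%). At an unadjusted limma p below 0.05, 2 autophagy mRNAs had the higher mean in NP (Sqstm1 and Map1lc3a), 6.06% of the 33, beside 9.47% of all genes tested. In the other direction there was 1 (Atg4a), 3.03%, beside 0.476% of all genes. Its NP mean lay under the floor of 0.1 FPKM, so it was tested only through P and nothing is read from this share. The unadjusted limma p of the other 30 lay between 0.0505 and 0.993, and a p of that size does not show that an mRNA was equal in both datasets.

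With the libraries scaled as deposited, the autophagy mRNAs were spread around an equal level in NP and P, while the median gene was lower in P, a direction that turned with centring. On the scale of the test the median log2 fold change of P over NP was -0.08 for the 33 autophagy mRNAs, of which 18 had a negative and 15 a positive value. For all genes tested the median was -0.39, with 10209 genes below and 4083 above 0. Of the 33, 24 (72.7%) lay above the median of all genes. The zero point depended on the scaling of the libraries. The median of all genes moved to -0.02 with quantile normalization and to 0.57 when each library was centred on its own median, and the median of the autophagy mRNAs moved with it, to 0.35 and 0.88. Their distance above the median of all genes was 0.31 as deposited and 0.37 with quantile normalization. Centring moves the fold change of every gene by the same amount, so it leaves the distance at 0.31 by construction. For scale, the median log2 level of the autophagy mRNAs had an SD of 0.575 between libraries. The split changed to 10 negative and 23 positive with quantile normalization, and to 6 and 27 with centring. Without P replicate 1 the distance was 0.17 and the split 23 negative to 9 positive.

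**Figure D1:**
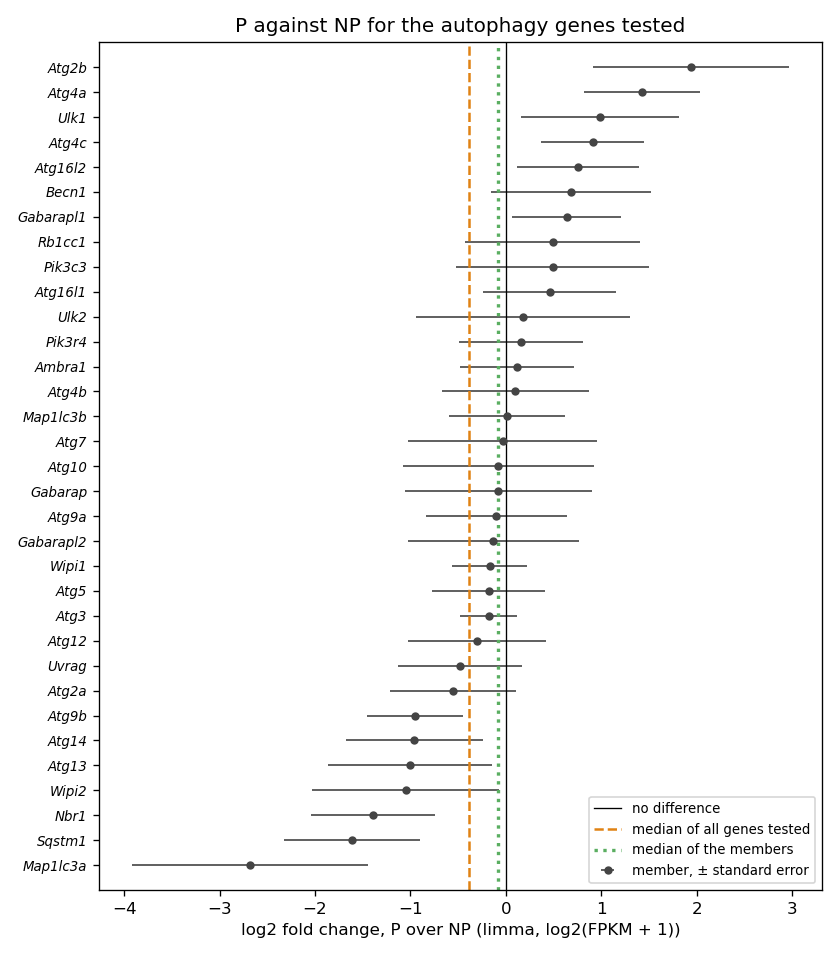
Log2 fold change of P over NP for the 33 autophagy genes tested, on the log2(FPKM + 1) scale, with the standard error from limma as bars. Dashed and dotted lines give the medians of all genes tested (-0.39) and of the autophagy genes (-0.08). Most bars cross 0, Map1lc3a, Sqstm1 and Nbr1 lie farthest to the NP side, and Atg2b and Atg4a lie farthest to the P side.

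By mean FPKM, 6 autophagy mRNAs (18.2%) were more than 2-fold higher in NP, beside 40.6% of all genes tested, and 6 (18.2%) were more than 2-fold higher in P, beside 16.9% of all genes. The first group was Map1lc3a, Sqstm1, Nbr1, Atg13, Wipi2 and Atg9b. The second was Atg2b, Ulk1, Atg4a, Atg4c, Gabarapl1 and Atg16l2, of which the last 4 stayed below 4 FPKM on average in both datasets. Replicates overlapped for nearly every gene. No autophagy mRNA had all 4 NP libraries above all 4 P libraries, which held for 5.92% of all genes tested, and 1 (Atg4a) had all P libraries above all NP libraries, which held for 0.357% of all genes. Atg4a and Atg16l2 had NP means under the floor of 0.1 FPKM and entered the test only through P, so their direction was set by that filter and nothing is read from their counts.

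**Figure D2:**
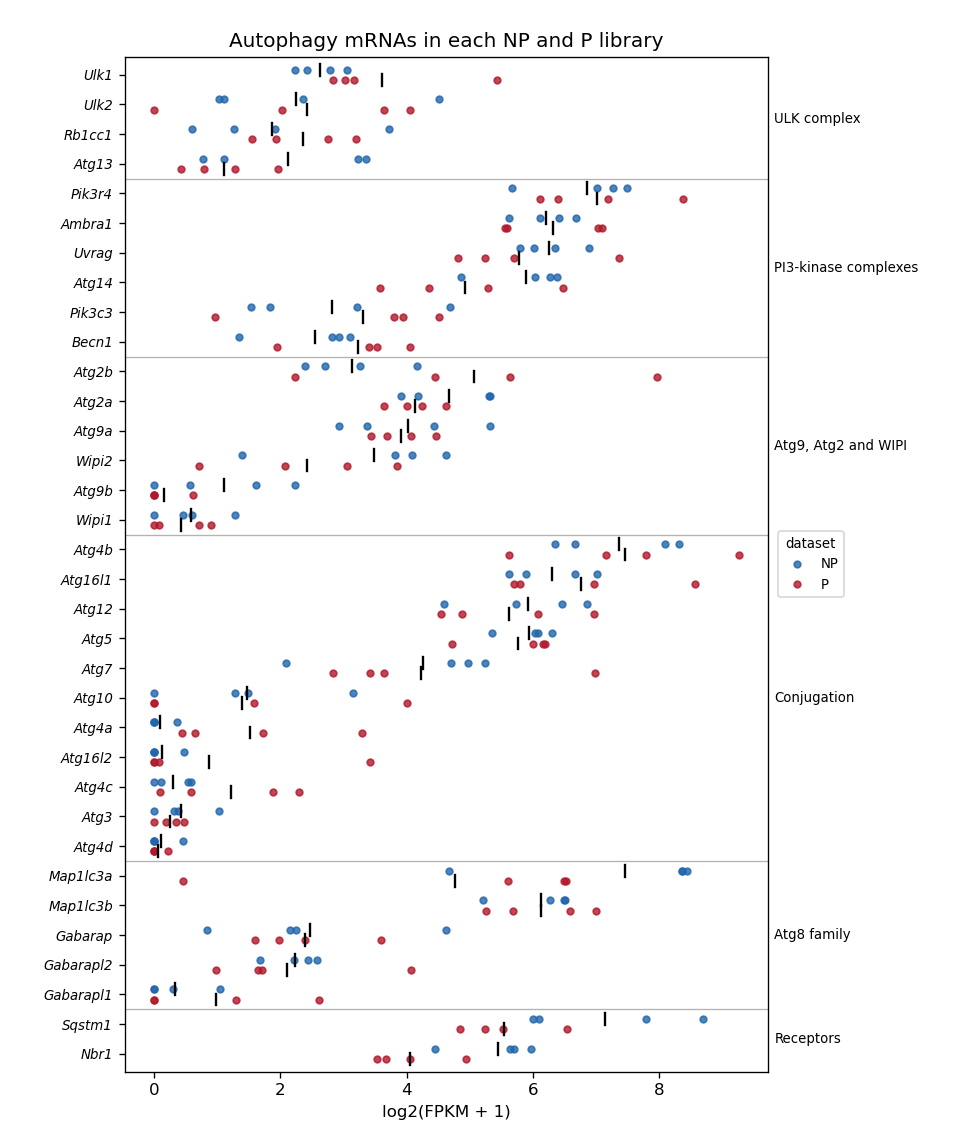
Level of the 34 autophagy mRNAs as log2(FPKM + 1) in each of the 4 NP (blue) and 4 P (red) libraries, by role, with a vertical bar at the mean of each dataset. The points of NP and P overlap in every row except Atg4a, and the levels run from 0 to 610.2 FPKM.

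The levels of the autophagy mRNAs ran from 0 to 610.2 FPKM. Their median level was 9.08 FPKM in NP and 13.5 FPKM in P, beside 5.75 and 3.99 FPKM for all genes tested. Of the 33, 11 (33.3%) exceeded 50 FPKM in NP and 11 in P, while 14.6% and 12.9% of all genes tested did so. The library with the highest value was not the same from gene to gene in NP, but in P it was replicate 1 for 17 of the 33 (51.5%), beside 33.5% of all genes tested. Summed over the 34 genes, the share of a library's total FPKM was 0.322, 0.264, 0.239 and 0.232% in NP replicates 1 to 4 and 0.362, 0.163, 0.194 and 0.238% in P replicates 1 to 4. These shares overlapped, with P replicate 1 the highest and P replicate 2 the lowest of the 8.

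In oocytes, recruitment of stored mRNAs to polysomes is known to depend on signals at the 3′ end of the 3′ UTR. The cytoplasmic polyadenylation element (CPE) is bound by CPEB proteins, and the polyadenylation signal (PAS) lies close to the end of the transcript. Both were searched on the transcript strand in the last 100 bases of annotated transcripts (GRCm38), with TTTTAT and TTTTAAT as CPE, AATAAA and ATTAAA as PAS, and TGTANATA as the Pumilio element. A CPE was found in 3 of 33 autophagy transcripts (9.09%), beside 2148 of 11070 genes tested (19.4%). These windows of 30 bases show, in capitals, the CPE nearest the end in each of the 3 transcripts.
Atg16l1 (chr1:87792338-87792367, plus strand): ccagggcacatcTTTTATttatttaattat
Atg2b (chr12:105616136-105616165, minus strand): aatgaataaagtatTTTTATttaaaggtaa
Map1lc3b (chr8:121598709-121598738, plus strand): tttttttttaatTTTTATtttccgtacatt
The CPE began 79, 16 and 40 bases before the annotated end of the 1 transcript used for Atg16l1, Atg2b and Map1lc3b. These ends need not be those of the genes as measured. With its FPKM values, Map1lc3b was listed as ending at 121598047, short of its window. Atg2b, on the minus strand, was listed as reaching 105613539, beyond its window. In Map1lc3b a TTTTAAT stands directly before the capitals, so both spellings adjoin.

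A PAS was found in 25 of the 33 transcripts (75.8%), beside 81.2% of all genes, and a Pumilio element in 2 (6.06%), beside 4.9%. For the 3 mRNAs with an unadjusted p below 0.05, no CPE spelling was present in the last 100 bases, and the PAS stands in capitals in these windows of 30 bases.
Sqstm1 (chr11:50200161-50200190, minus strand): taagtaacctgtAATAAAatggcatatgca
Map1lc3a (chr2:155278034-155278063, plus strand): ctctgcagaaagAATAAAgactgctcaggc
Atg4a (chrX:141164241-141164270, plus strand): acattcaatctgtccATTAAAtacaagtcc
Atg4a carries the variant ATTAAA and the other two the canonical AATAAA. Over all genes tested, the median log2 fold change of P over NP was -0.38 with a CPE and -0.40 without one. A match to these letters is not evidence of a functional site, and the end used by the oocyte transcript was not measured.

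Both cargo receptors had a lower mean level in P. Sqstm1 encodes p62, which binds ubiquitinated cargo and Atg8 proteins and is itself degraded by autophagy (chr11:50199366-50210827, minus strand, GRCm38). Its mRNA was at 411, 219.7, 67.0 and 63.2 FPKM in NP replicates 1 to 4 and at 91.4, 44.9, 27.8 and 36.6 FPKM in P replicates 1 to 4. The values of NP replicates 3 and 4 lay below that of P replicate 1, so the datasets overlapped, although the 3 lowest values were all from P. The mean was 190.3 ± 164 FPKM in NP and 50.2 ± 28.4 FPKM in P (SD, n = 4 each), 3.79-fold higher in NP. The log2 fold change of P over NP was -1.61 with a standard error of 0.71, an unadjusted limma p of 0.0392 and an adjusted p of 0.483. It was -1.09 without NP replicate 1, which held 54.0% of the summed NP value, and -0.65 with each library centred on its median, with unadjusted limma p of 0.158 and 0.371.

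Nbr1, a receptor that binds ubiquitin and Atg8 proteins in the same manner, stood just outside an unadjusted p of 0.05. It was at 48.7, 20.9, 61.8 and 50.8 FPKM in NP replicates 1 to 4 and at 10.5, 11.8, 15.5 and 29.6 FPKM in P replicates 1 to 4. NP replicate 2 lay below P replicate 4, and every other NP value lay above every P value. The mean was 45.6 ± 17.4 FPKM in NP and 16.9 ± 8.73 FPKM in P (SD, n = 4 each), 2.7-fold higher in NP, with a log2 fold change of -1.39, a standard error of 0.65 and an unadjusted limma p of 0.0505. With centring on the library median the log2 fold change was -0.43.

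In the Atg8 family, whose members are coupled to lipid on the growing membrane, Map1lc3b stood above the GABARAP group in every library, and Map1lc3a in every library except P replicate 3. Map1lc3a encodes LC3A (chr2:155276297-155278073, plus strand, GRCm38). It was at 327, 345, 24.4 and 328 FPKM in NP replicates 1 to 4 and at 89.0, 47.8, 0.381 and 90.4 FPKM in P replicates 1 to 4. The third replicate was the lowest of each dataset, and the value of NP replicate 3 lay below 3 of the P values. The P value of 0.381 FPKM corresponded to 2 steps.

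The mean of Map1lc3a was 256 ± 155 FPKM in NP and 56.9 ± 42.6 FPKM in P (SD, n = 4 each), 4.5-fold higher in NP. Its log2 fold change of -2.68 was the lowest of the autophagy genes, with a standard error of 1.24, an unadjusted limma p of 0.0487 and an adjusted p of 0.5. Without P replicate 3 it was -1.25, with an unadjusted limma p of 0.172. Without NP replicate 3 it was -3.61, with an unadjusted limma p of 0.0124. With centring on the library median it was -1.73 and with quantile normalization -2.28, with unadjusted limma p of 0.18 and 0.0939.

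Map1lc3b encodes LC3B, the form most often used to mark autophagosomes. Its mRNA was at 90.0, 76.4, 36.1 and 89.1 FPKM in NP replicates 1 to 4 and at 127, 50.1, 37.1 and 95.3 FPKM in P replicates 1 to 4. The means were close, 72.9 ± 25.3 FPKM in NP and 77.3 ± 41.3 FPKM in P (SD, n = 4 each), and the log2 fold change was 0.01 with a standard error of 0.61. Of the remaining members, Gabarap ranged from 0.785 to 23.6 FPKM in NP and from 2.03 to 11 FPKM in P. Gabarapl2 ranged from 2.19 to 4.97 FPKM in NP and from 0.964 to 15.7 FPKM in P. Gabarapl1 was listed at 0 in 4 of the 8 libraries and reached at most 5.1 FPKM, in P replicate 3.

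The make-up of the family can be read within each library, where the scaling between libraries cancels. Map1lc3a held 73.4, 80.2, 36.8 and 77.7% of the summed FPKM of the 5 genes in NP replicates 1 to 4. In P replicates 1 to 4 it held 36.5, 45.8, 0.8 and 47.9%. In 3 of the 4 NP libraries the share exceeded that of every P library, and NP replicate 3 fell among the P values. Map1lc3b held 20.2, 17.8, 54.4 and 21.1% in NP and 52.0, 48.0, 77.9 and 50.5% in P, so that it was the leading family member in all 4 P libraries and in NP replicate 3. These shares describe the balance of the paralogs, without a test, and do not say which of them differed in amount.

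**Figure D3:**
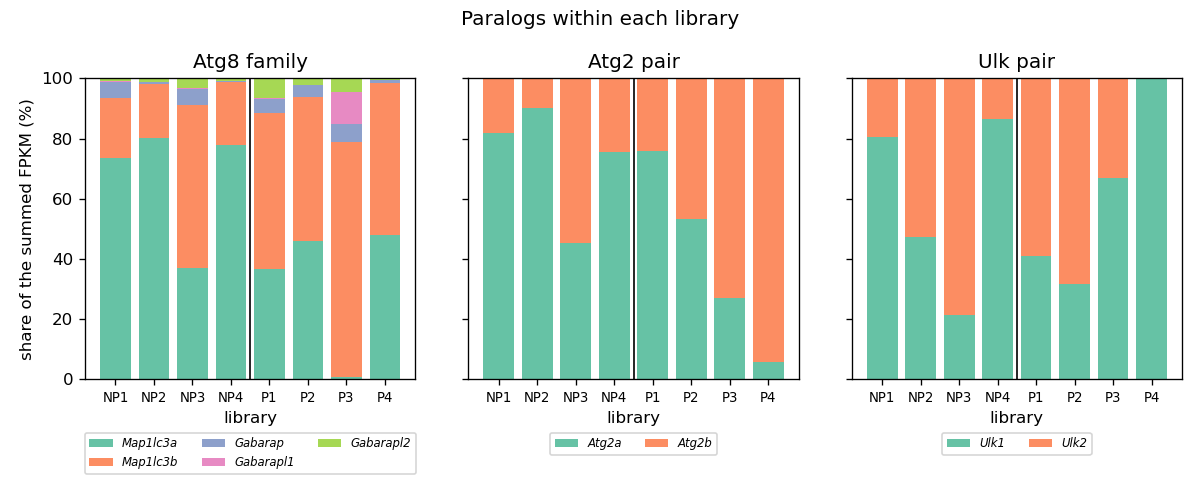
Share of the summed FPKM of a gene family held by each paralog, in percent, in each library (NP1 to NP4 and P1 to P4), for the Atg8 family, the Atg2 pair and the Ulk pair. Map1lc3a leads in 3 NP libraries and Map1lc3b in every P library, Atg2b takes 9.79 to 54.8% in NP and 24.3 to 94.3% in P, and the Ulk pair shows no separation of NP from P.

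The conjugation machinery divided into abundant and nearly undetected genes. Atg4b, the main protease that trims Atg8 proteins before conjugation and removes them from lipid, had the highest mean of the 34 genes over the 8 libraries, although Map1lc3a had the highest in NP. Its mRNA was at 317, 272, 80.4 and 100.1 FPKM in NP replicates 1 to 4 and at 610.2, 47.9, 142 and 219.9 FPKM in P replicates 1 to 4. The P values spanned the whole NP range, the mean P to NP ratio was 1.32, and without P replicate 1 it was 0.709. Atg16l1, which places the conjugating enzyme on the membrane, was at 128, 100.0, 48.3 and 58.1 FPKM in NP and at 377, 51.1, 54.6 and 124 FPKM in P. Its ratio was 1.81, and it was 0.916 without P replicate 1. Every ratio given here without a P library leaves out the highest P value and keeps the highest NP value, which can only lower the ratio.

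Atg5, Atg12 and Atg7 take part in the reaction that forms the Atg12-Atg5 conjugate. Atg5 was at 39.8, 64.1, 77.8 and 66.9 FPKM in NP replicates 1 to 4 and at 71.6, 25.3, 70.3 and 63.0 FPKM in P replicates 1 to 4. Atg12 was at 52.2, 23.2, 87.1 and 115 FPKM in NP and at 124, 22.3, 28.2 and 66.4 FPKM in P. The NP and P values of both mRNAs interleaved, with mean P to NP ratios of 0.926 for Atg5 and 0.868 for Atg12. For Atg12 the ratio was 0.561 without P replicate 1. Atg7, the E1-like activating enzyme of both conjugation reactions, was at 36.8, 30.5, 25.1 and 3.27 FPKM in NP and at 125, 6.14, 11.5 and 9.67 FPKM in P. P replicate 1 stood far above the rest, and the ratio of 1.59 became 0.381 without it.

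The E2-like enzymes were scarce. Atg3, which transfers Atg8 proteins to lipid, ranged from 0 to 1.05 FPKM in NP and from 0 to 0.396 FPKM in P, on at most 24 steps in a library. Its partner enzyme Atg10, which acts on Atg12, ranged from 0 to 7.86 FPKM in NP and from 0 to 15.1 FPKM in P and was at 0 in 3 libraries. Atg16l2, a paralog of Atg16l1, was above 0 in 3 libraries, with 9.7 FPKM in P replicate 1 and at most 0.389 FPKM in the others. Low values of this kind say that few fragments were sequenced and not that the mRNA was absent.

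Atg4a was the only autophagy mRNA whose datasets did not overlap. It encodes an Atg8 protease that prefers the GABARAP group (chrX:140956907-141164270, plus strand, GRCm38). It was at 0, 0.289, 0 and 0 FPKM in NP replicates 1 to 4 and at 2.32, 0.352, 8.79 and 0.561 FPKM in P replicates 1 to 4. All P values thus lay above all NP values, but P replicates 2 and 4 exceeded the NP maximum by less than 1 FPKM. In steps, NP replicate 2 held 1 and the other NP libraries 0, while the P libraries held 29, 3, 104 and 4.

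P replicate 3 alone held 104 of the steps, and the mean NP value lay below the floor of the test, so Atg4a was tested only through its P values. On the log2(FPKM + 1) scale, which understates changes of low genes, the fold change was 1.43 with a standard error of 0.61, an unadjusted limma p of 0.0334 and an adjusted p of 0.47. Without P replicate 3, which held 73.1% of the summed P value, it was 0.84 with an unadjusted limma p of 0.0534. Atg4c ranged from 0 to 0.492 FPKM in NP and from 0.0671 to 3.91 FPKM in P. Atg4d exceeded 0 only in NP replicate 1, at 0.37 FPKM, and in P replicate 1, at 0.167 FPKM. Atg4b held at least 91.8% of the summed FPKM of the 4 Atg4 genes in every library.

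The lipid supply and membrane recruitment genes were at intermediate levels. Atg2 proteins form a bridge through which lipids flow to the growing membrane. Atg2b was at 8.59, 4.24, 16.9 and 5.5 FPKM in NP replicates 1 to 4 and at 3.7, 20.8, 48.8 and 247 FPKM in P replicates 1 to 4. The 3 highest values were from P, while P replicate 1 was the lowest of the 8. The mean was 8.82 ± 5.71 FPKM in NP and 80.0 ± 113 FPKM in P (SD, n = 4 each). The ratio of 9.07 became 2.77 without P replicate 4, and the log2 fold change of 1.94, the highest of the autophagy genes, had a standard error of 1.03 and an unadjusted limma p of 0.0814.

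Its paralog Atg2a did not show this spread, with 38.4, 39.0, 14 and 17.1 FPKM in NP replicates 1 to 4 and 11.5, 23.7, 18 and 15 FPKM in P replicates 1 to 4. Atg2b accordingly held 18.3, 9.79, 54.8 and 24.4% of the pair in NP and 24.3, 46.7, 73.1 and 94.3% in P. Atg9a, the scramblase carried by the vesicles that seed the membrane, was at 20.6, 39.1, 9.31 and 6.61 FPKM in NP and at 15.7, 9.86, 21.1 and 11.9 FPKM in P. The P values lay within the NP range, and Atg9a held at least 81.9% of the Atg9 pair in every library. Atg9b was at most 3.71 FPKM, was at 0 in 3 P libraries and NP replicate 4, and had an unadjusted limma p of 0.0773.

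WIPI proteins read the lipid mark made by Pik3c3. Wipi2, which recruits Atg16l1, was at 23.5, 15.9, 13.1 and 1.62 FPKM in NP replicates 1 to 4 and at 13.4, 7.33, 0.643 and 3.2 FPKM in P replicates 1 to 4. The mean was 2.2-fold higher in NP, but each dataset held a library below 2 FPKM. Wipi1 was at most 1.43 FPKM in NP and at most 0.869 FPKM in P.

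None of the mRNAs of the lipid kinase complexes differed more than 2-fold between the means of NP and P. Pik3r4, the regulatory subunit Vps15, was at 152, 50.0, 128 and 178 FPKM in NP replicates 1 to 4 and at 145, 83.0, 68.4 and 331 FPKM in P replicates 1 to 4. Ambra1, a scaffold that links Beclin 1 to its regulators, was at 101, 84.2, 68.0 and 47.9 FPKM in NP and at 136, 130.0, 46.0 and 47.3 FPKM in P. The datasets overlapped widely for both, with mean P to NP ratios of 1.24 for Pik3r4 and 1.19 for Ambra1. The ratio of Pik3r4 was 0.779 without P replicate 4.

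Uvrag and Atg14 are alternative subunits that direct the kinase to endosomes and to the forming autophagosome. Uvrag was at 63.3, 54.6, 117 and 80.2 FPKM in NP replicates 1 to 4 and at 164, 51.0, 36.8 and 27.0 FPKM in P replicates 1 to 4. Apart from P replicate 1, its P values lay below all of its NP values, and the ratio of 0.883 became 0.486 without that library. Atg14 was at 28.1, 64.7, 75.9 and 82.1 FPKM in NP and at 38.2, 10.9, 88.2 and 19.4 FPKM in P. Its highest value was in P replicate 3, without which the ratio of 0.625 was 0.364.

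The catalytic subunit and Beclin 1 were less abundant than these regulators. Pik3c3, the kinase Vps34, was at 1.89, 8.27, 24.6 and 2.57 FPKM in NP replicates 1 to 4 and at 21.7, 12.9, 0.957 and 14.3 FPKM in P replicates 1 to 4. The third replicate was the highest in NP and the lowest in P. Becn1, encoding Beclin 1, ranged from 1.55 to 7.62 FPKM in NP and from 2.87 to 15.6 FPKM in P, with a log2 fold change of 0.68 and a standard error of 0.84. For the 6 genes of these complexes the median of the mean levels was 69.0 FPKM in NP and 54.4 FPKM in P, and the median log2 fold change was 0.14.

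The 4 measured genes of the initiating ULK complex that the symbol rule took had median mean levels of 5.08 FPKM in NP and 6.1 FPKM in P. Ulk1, the kinase that receives the nutrient signals, was at 4.33, 3.69, 5.88 and 7.3 FPKM in NP replicates 1 to 4 and at 7.96, 7.12, 6.13 and 42.0 FPKM in P replicates 1 to 4. Its P to NP ratio of 2.98 was 1.33 without P replicate 4, and the other P values lay within 1 FPKM of the NP maximum or below it. Ulk2 ranged from 1.05 to 21.8 FPKM in NP and from 0 to 15.5 FPKM in P. The scaffold Rb1cc1, also known as FIP200, ranged from 0.524 to 12.1 FPKM in NP and from 1.93 to 8.21 FPKM in P. Atg13, the subunit that joins the kinase to the scaffold, ranged from 0.705 to 9.28 FPKM in NP and from 0.342 to 2.88 FPKM in P. Which of the kinases led varied between libraries of the same dataset, with Ulk1 at 21.2 to 86.4% of the pair in NP and 31.5 to 100.0% in P.

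The remaining subunit of this complex, Atg101, stands in the table under an older symbol, 9430023L20Rik, and so was not among the 34 genes. It was at 122, 115, 36.5 and 139.9 FPKM in NP replicates 1 to 4 and at 404, 119, 92.9 and 3493 FPKM in P replicates 1 to 4. Its level was above those of the other 4 subunits in every library, and P replicate 4 held most of its P value. The P to NP ratio was 9.93, and 1.99 without P replicate 4. The log2 fold change of 1.93 had a standard error of 0.96, an unadjusted limma p of 0.0649 and an adjusted p of 0.524.

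Ranks within a library do not depend on its scaling. Among all genes tested, 20 of the 33 autophagy mRNAs had a higher median rank in P and 13 in NP, and 52.6% of all genes ranked higher in P. Atg4b stood at percentile 94.7 in NP and 96.1 in P, Map1lc3a at 97.7 and 89.8, and Sqstm1 at 93.2 and 86.1. Atg2b stood at 58.5 in NP and 83.7 in P, and Pik3c3 at 52.9 and 74.0. Genes at 0 share an averaged rank, which is higher where more genes are at 0, as in P, so the ranks of the scarce mRNAs are not comparable between the datasets. Wipi1 (21.5 in NP and 33.6 in P) and Atg3 (22.5 and 31.1) ranked higher in P with mean P to NP ratios of 0.668 and 0.509. As such genes are among the 20, nothing is read from the counts of 20 and 13.

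**Figure D4:**
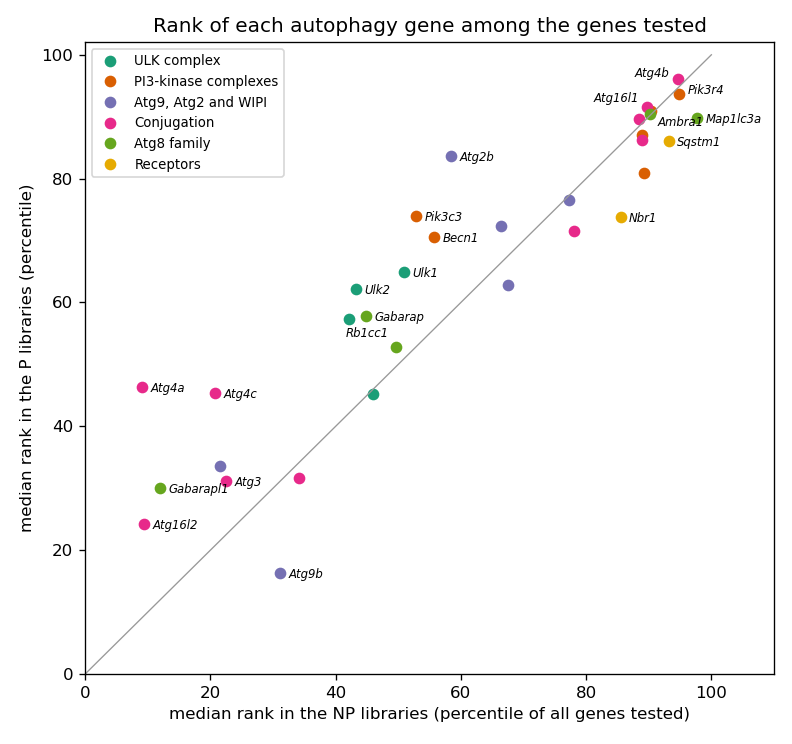
Median rank of each of the 33 autophagy genes tested in the NP libraries (horizontal axis) and in the P libraries (vertical axis), as a percentile of all genes tested and coloured by role. The diagonal marks equal rank. Atg4b, Pik3r4, Atg16l1, Ambra1, Map1lc3a and Sqstm1 lie at the upper right, Atg2b (58.5 and 83.7) lies above the line, and Nbr1 (85.5 and 73.8) below it.

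Further genes of the pathway were listed in 4 groups (other genes of autophagosome formation, other receptors, fusion with lysosomes, and upstream control). Of 58 listed genes 57 were in the table and 51 were tested, and none passed the test in limma or with voom. At an unadjusted limma p below 0.05, 2 (3.92%) had the higher mean in NP and 1 (1.96%) in P, beside 9.47% and 0.476% of all genes tested. The median log2 fold change of the 51 was -0.55, with -0.66 for formation, -0.50 for receptors, -0.05 for fusion and -0.71 for upstream control. By mean level, 14 (27.5%) exceeded 2-fold towards NP and 6 (11.8%) towards P, beside 40.6% and 16.9% of all genes tested. All NP libraries lay above all P libraries for 2 of the 51 (Phb2 and Vmp1), beside 5.92% of all genes tested. The reverse held for 1 (Stx17), beside 0.357%.

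Phb2 and Stx17 were picked for an unadjusted limma p below 0.05 and a mean above 10 FPKM in the higher dataset. Their separation therefore gives no further support. The other gene with such a p, Nrbf2, had means of 8.16 FPKM in NP and 0.515 FPKM in P. Phb2, encoding the mitophagy receptor prohibitin 2, was at 859.9, 925, 249 and 400.0 FPKM in NP replicates 1 to 4 and at 217, 222, 137 and 124 FPKM in P replicates 1 to 4. Every NP value lay above every P value. The log2 fold change was -1.64 with a standard error of 0.58, an unadjusted limma p of 0.0131 and an adjusted p of 0.416. Stx17, the syntaxin of the mature autophagosome that drives its fusion with the lysosome, was at 14.5, 9.21, 8.36 and 1.73 FPKM in NP and at 23.7, 34.8, 27.3 and 15.5 FPKM in P. Every P value lay above every NP value, with a mean of 8.44 ± 5.22 FPKM in NP and 25.3 ± 8.0 FPKM in P (SD, n = 4 each). Its log2 fold change was 1.67 with a standard error of 0.75, an unadjusted limma p of 0.0428 and an adjusted p of 0.493.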

How the data were processed

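RNA of the pooled NP and P fractions was freed of ribosomal RNA, primed with random and oligo(dT) primers for cDNA synthesis, amplified and sequenced in 4 libraries per dataset, which the study describes as biological replicates. The authors trimmed reads with Trim Galore 0.4.1, checked them with FastQC 0.11.5, used HISAT2 2.0.5 for mapping to GRCm38, and took gene values from Seqmonk. The deposited values are FPKM on a linear scale. The sources used here do not say how reads with several matches were counted, and overlapping genes may share reads. The authors' tables of ratios and DESeq2 results were not used.

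The members and lists were chosen with earlier results of these data known. P was compared with NP in limma 3.58.1 (R 4.3.3, eBayes with a trend, 2-sided) on log2(FPKM + 1), without a block, for genes whose mean FPKM in NP or in P exceeded 0.1. The fit was also run on simulated data, with independent libraries and large changes planted only in genes well above the floor. That run says nothing about scarce mRNAs, smaller changes or paired libraries. Ratios of means had 0.0001 added. Steps were recovered for 32 of 34 members (tolerance 0.01 of a step), 13 of them with a length searched from 100 to 30000 bases, and for 13589 genes (87.2% of those above 0). Every member is named. Values per library are given for members with a mean FPKM above 10 in a dataset or an unadjusted p below 0.05, or without overlap, and full statistics for the last groups, to which Nbr1, Atg2b and Map1lc3b were added after their values were seen. Older symbols were matched through the reference tables. The 3′ ends came from the GRCm38 reference annotation, with 1 coding transcript per gene. The best-ranked principal form was taken, and the longest where several ranked the same. Alternatives were the pseudocount, the filter, the scaling, the replicate block, each library left out, and voom on recovered reads.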

Additional observations from a re-analysis of the deposited data

Results flagged for a closer look

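In 4 of 40 groups of 4 libraries, taken from the 20 autophagy mRNAs with values per library, 1 library stood apart from the others by Dixon's ratio (the gap to the nearest value divided by the whole range, compared with its 95% critical value). For normally distributed values chance gives about 1 such group in 20. That rate need not hold for FPKM on a linear scale or for groups at 0. Map1lc3a in NP replicate 3 was at 24.4 FPKM beside 327 to 345 FPKM in the other NP libraries, a ratio of 0.944. Ulk1 in P replicate 4 was at 42.0 FPKM beside 6.13 to 7.96 FPKM, a ratio of 0.949. Atg7 in P replicate 1 was at 125 FPKM beside 6.14 to 11.5 FPKM, a ratio of 0.955. Atg4a in NP replicate 2 was at 0.289 FPKM, a single step, beside 0 in the other NP libraries, a ratio of 1, which any single step beside zeros gives by construction. The causes were not tested.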

How the results depend on the processing

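No autophagy mRNA was called under any alternative. All genes called numbered 3 as reported, 5 with a pseudocount of 0.1, 0 without a filter, 5 with a mean FPKM above 1, 0 with quantile normalization, 0 with centring on the library median, 1 with the replicate block and 189 with voom on recovered reads. With single libraries left out they numbered 0 to 5. Centring gave 7 autophagy mRNAs with a p below 0.05, all higher in P (21.2%, beside 19.0% of all genes), a median log2 fold change of 0.88, and 2 and 19 mRNAs more than 2-fold higher in NP and P. It also gave 5 with all P above all NP libraries, and the shift comes from subtracting library medians. Quantile normalization gave 11 more than 2-fold higher in P and 3 with all P above all NP libraries. With single libraries left out, 0 to 3 mRNAs had a p below 0.05 (0 without NP replicate 1, 1 without P replicate 3). Without NP replicate 1, 1178 of all 14176 genes in the fit had such a p towards NP and 46 towards P. Without P replicate 3 it was 1137 and 162 of 14213 genes. Nothing is read from these p counts. With single libraries left out, 5 to 12 mRNAs were more than 2-fold higher in NP (12 without P replicate 1) and 5 to 10 in P (10 without NP replicate 3). All NP above all P held for 0 to 2 (2 without P replicate 1, 1 without NP replicate 2, NP replicate 3 or P replicate 4), and all P above all NP for 1 to 3 (3 without P replicate 3, 2 without NP replicate 4 or P replicate 1). No share over all genes was computed for the 2-fold and overlap counts of the alternatives, so nothing is read from them. The cause was not tested for the other shifts. The log2 fold changes of Map1lc3a, Sqstm1 and Atg4a kept their sign in all 45 refits. These genes were picked by their p in the same libraries, so the kept sign gives no further support. Same-numbered libraries correlated at 0.139, 0.0518, 0.251 and 0.155 in their deviations, and 7 of 8 libraries correlated best with their own number, the exception being NP replicate 2 (0.136 with P replicate 1). This hints at pairing, and the study describes 4 profiles whose fractions were pooled into NP and P. As no label ties a number to a gradient and 1 pair lay below 0.1, the numbers were not taken as pairs. The limma p without the block ignores any pairing. With the replicate block, 4 mRNAs had an unadjusted limma p below 0.05, with adjusted p of 0.194 to 0.406. Map1lc3a (0.00057), Sqstm1 (0.0111) and Nbr1 (0.0461) were higher in NP (9.09%, beside 11.3% of all genes tested). Atg4a (0.0338) was higher in P (3.03%, beside 0.812%) and was tested only through its P values. Map1lc3a, Sqstm1 and Nbr1 were higher in the NP library of the same number in 4 of 4 cases. Depth limits the mRNAs near 0, such as Atg3 and Atg4d.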
